A study of Mus musculus with 8 samples.

Results

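A set of 9 genes of mitophagy and selective autophagy was followed in whole hearts of mice lacking the mitochondrial single-stranded DNA binding protein in muscle cells: *Pink1*, *Bnip3*, *Bnip3l*, *Fundc1*, *Sqstm1*, *Optn*, *Map1lc3a*, *Map1lc3b* and *Gabarapl1*. They were taken by gene name, 9 of the 55383 rows in the deposited table of normalized counts, and all 9 passed the filter on low values, at least 10 normalized counts in at least 2 of 4 hearts. Knockout hearts came from mice homozygous for a loxP-flanked *Ssbp1* that carried Cre recombinase under the muscle creatine kinase promoter (L/L, cre), and control hearts from loxP-flanked mice without Cre (L/L). All were C57BL/6N mice of about 5 weeks of age. The sample labels write these genotypes as Ssbp1-/- and Ssbp1+/+ and do not state which animals carried Cre. The promoter is active in cardiomyocytes and skeletal muscle, so other cells of a knockout heart keep the gene. All labels give the same genotype for 2 knockout and 2 control hearts, and these were compared. For a further 2 mice the title and the genotype label contradict each other, and they enter no comparison.

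Mitophagy is the removal of mitochondria by autophagosomes, and it can start in several ways. The kinase PINK1 accumulates on mitochondria that have lost their membrane potential and phosphorylates ubiquitin, which marks them for removal. Adaptors such as p62, the product of *Sqstm1*, and optineurin then tie the ubiquitin chains to ATG8 proteins (the LC3 and GABARAP families) on the growing autophagosome. Receptors in the outer mitochondrial membrane, among them BNIP3, NIX (encoded by *Bnip3l*) and FUNDC1, bind ATG8 proteins without ubiquitin. The heart is rich in mitochondria and depends on their turnover. A messenger RNA level does not measure mitophagy itself, since PINK1 and p62 are controlled largely through degradation of the protein.

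Values are normalized counts, the reads of a gene divided by 1 scaling factor per library. Reads here are estimates by the quantification program Salmon. Their sum over genes was 25558246 and 25682093 in knockout replicates 1 and 2, and 24067849 and 19716305 in control replicates 1 and 2. The 9 genes had between 153 reads (*Fundc1* in control replicate 2) and 4248 reads (*Pink1* in knockout replicate 1) in a library. *Ssbp1* itself had 169.7 and 162.9 normalized counts in the knockouts, against 176.9 and 215.6 in the controls (log2 fold change -0.23 ± 0.16, limma adjusted p = 0.890). Here and below, ± after a log2 fold change is its standard error from limma, with 2 hearts per group. For this error the variance of each gene is drawn toward a trend over all genes tested, so it is not the spread of the 4 hearts alone. This is a value for the whole gene over all cells of the heart, and the deleted stretch alone was not measured here. Cardiomyocyte markers (*Myh6*, *Tnnt2*, *Tnni3*, *Actc1*, *Ryr2* and *Myl2*) were present in every heart and did not separate the groups. Their sum was 538182 to 557373 normalized counts in the knockouts and 526471 to 562536 in the controls. All 4 fibroblast markers had negative log2 fold changes, and their sum was 6528 and 6894 in the knockouts, against 8144 and 7691 in the controls. In 2 of these 4 both knockouts lay below both controls (17.5% of all genes tested). All 3 smooth muscle markers also had negative log2 fold changes (median -0.33, lowest -0.98), with sums of 2376 and 3222 in the knockouts, against 4077 and 2716 in the controls. Of 4 macrophage markers, 2 were lower in both knockouts than in both controls (17.5% of all genes tested). The other 2 had positive log2 fold changes (highest 0.065). Among the 4, 1 had an unadjusted limma p under 0.05 (6.11% of all genes tested). The macrophage sums were 1009 and 1019.8 in the knockouts, against 1457 and 794 in the controls. All 4 endothelial markers had positive log2 fold changes (median 0.055), and in 1 both knockouts lay above both controls (18.1% of all genes tested). The endothelial sums were 8861 and 9674 in the knockouts, against 9254 and 8541 in the controls. No marker of these types passed the test, and their part in the differences below was not tested. In whole hearts, fewer cells of a type and less RNA per cell cannot be told apart.

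None of the 9 genes passed the test between knockout and control hearts at an adjusted p under 0.05 from limma, where 0.117% of the 14522 genes tested did (0.0757% higher and 0.0413% lower in the knockouts). The gene that stood out was *Sqstm1*, 1.41-fold higher in the knockouts, and it was the 1 member with an unadjusted limma p under 0.05, which 6.11% of all genes reached. The groups did not overlap in 5 members. Both knockouts lay above both controls in *Sqstm1*, *Optn* and *Gabarapl1*, and below both in *Fundc1* and *Map1lc3b*. The same separation was found in 35.6% of the genes tested, with the knockouts above in 18.1% and below in 17.5%. The median log2 fold change of the 9 genes was -0.0030, against 0.0024 over all genes tested.

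Levels were first set against each other per kilobase of the longest annotated transcript. *Map1lc3a*, which encodes an LC3 protein of the autophagosome membrane, had the highest level on this scale, with a mean of 1678 normalized counts per kilobase in the knockouts and 1572 in the controls. *Pink1* followed at 1333 and 1329 per kilobase, and the ranges of these first members overlapped. *Sqstm1* had 989 per kilobase in the knockouts and 702 in the controls, and *Bnip3* 477 and 489. *Map1lc3b*, at 316 in the knockouts and 356 in the controls, lay above *Optn* (277 and 245) and *Gabarapl1* (252 and 221), whose ranges overlapped each other. *Bnip3l* had 142 per kilobase in the knockouts and 177 in the controls. *Fundc1* was the lowest, at 89.9 in the knockouts and 105 in the controls. Apart from the 2 overlapping pairs of neighbours, each member's lowest heart exceeded the highest heart of the next member. The order depends on the transcript length used, and which transcripts the hearts expressed was not determined. By normalized counts alone *Pink1* was the highest, with means of 3165 in the knockouts and 3156 in the controls.

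**Figure D1:**
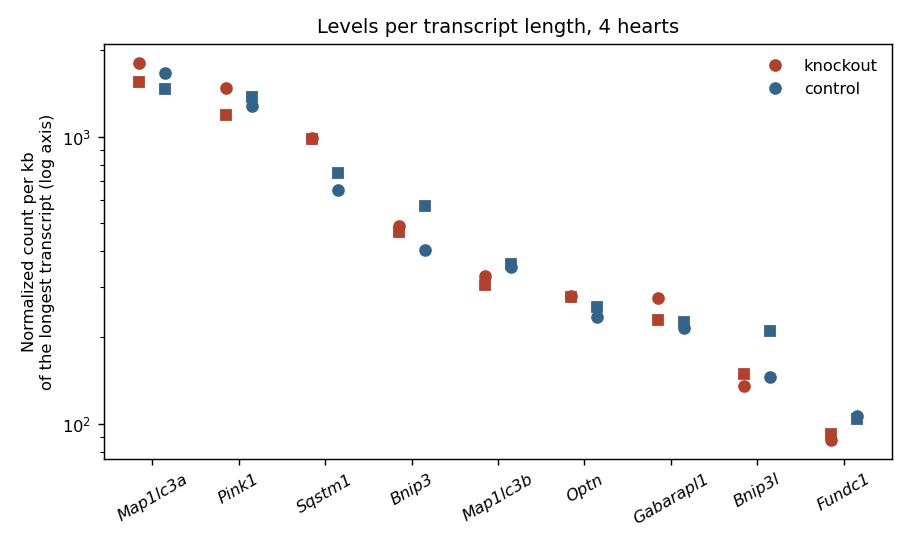
Normalized counts per kilobase of the longest annotated transcript (vertical log axis) for the 9 genes (horizontal axis), with 1 point per heart, circles for replicate 1 and squares for replicate 2. The knockout means run from 89.9 for *Fundc1* to 1678 for *Map1lc3a*, and the control means from 105 to 1572.

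No difference between the groups was called in the PINK1 arm. *Pink1* (ENSMUSG00000028756.12, chromosome 4, 138313409 to 138326307 on the minus strand of GRCm38) had 3499 and 2831 normalized counts in the knockouts, against 3044 and 3267 in the controls. The highest and the lowest heart were both knockouts, and the log2 fold change was -0.0030 ± 0.12 (limma adjusted p = 0.998). Of 14 genes listed as PINK1 partners, none was called in either direction, and their median log2 fold change was 0.013. Among the 14, 2 had an unadjusted limma p under 0.05 (6.11% of all genes tested). The gene of this list with the smallest p was *Mul1*, a ubiquitin ligase of the outer mitochondrial membrane, at 263.6 and 348.1 in the knockouts and 466.2 and 412.2 in the controls (log2 fold change -0.53, adjusted p = 0.750 from limma). *Tbk1*, the kinase that phosphorylates optineurin and p62, had 224.9 and 225.7 in the knockouts and 178.9 and 177.8 in the controls. *Usp30*, a deubiquitinase of the outer mitochondrial membrane, had 107.9 and 143.1 in the knockouts and 91.9 and 97.0 in the controls. In these 3 genes the groups did not overlap. Over all 14, both knockouts lay above both controls in 3 (18.1% of all genes tested) and below both in 2 (17.5%). *Tomm7*, a subunit of the import complex that holds PINK1 at the outer membrane, had 373.2 and 366.4 in the knockouts and 285.4 and 374.5 in the controls, which overlapped.

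No receptor of the outer membrane passed the test. *Bnip3* (ENSMUSG00000078566.8, chromosome 7, 138890836 to 138909519, minus strand) had 858 and 816 normalized counts in the knockouts, against 710 and 1009 in the controls. The controls bracketed the knockouts, with a log2 fold change of -0.016 ± 0.17 (limma adjusted p = 0.994). Its close relative *Bnip3l* (ENSMUSG00000022051.15, chromosome 14, 66985239 to 67008877, minus strand), which encodes NIX and is known for clearing mitochondria from maturing red cells, had 439.9 and 484.3 in the knockouts. The controls had 473.0 and 683.0 normalized counts of *Bnip3l*. Knockout replicate 2 lay above control replicate 1, and the log2 fold change was -0.30 ± 0.19 (limma adjusted p = 0.867).

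The values of both genes depended on which control was left out. Control replicate 1 had the lowest level of *Bnip3*, and the highest level of each gene was in control replicate 2. Without it the log2 fold changes were 0.24 for *Bnip3* and -0.035 for *Bnip3l*, and without control replicate 1 they were -0.27 and -0.56, none past the threshold in limma. Control replicate 2 was also the highest of the 4 hearts in 6 of the 9 FoxO factors and targets, a count made after the values were seen. Over all 14522 genes tested it was the highest in 4102 (28.2%) and the lowest in 4102. *Fbxo32*, a muscle ubiquitin ligase and FoxO target, had 1398 and 1319 normalized counts in the knockouts, against 1306 and 2269 in the controls. *Ddit4*, which encodes an inhibitor of mTORC1, had 187 and 193 in the knockouts and 166 and 377 in the controls. What lies behind these values was not tested. The summed erythroid markers, globins included, were 14939 and 41914 in the knockouts and 18969 and 14456 in the controls. Of these 6 markers, 5 had positive log2 fold changes and 1 a negative one (from -0.58 to 0.78). In none of the 6 were the groups apart (35.6% of all genes tested), and none was called. The part of these markers in the *Bnip3l* values was not tested. A processed copy, *Bnip3l-ps*, held at most 7.41 normalized counts in a compared heart, and how reads were shared between it and *Bnip3l* was not tested.

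*Fundc1* (ENSMUSG00000025040.13, chromosome X, 17556564 to 17572325, minus strand), a receptor described in hypoxic mitophagy, had 174 and 183 normalized counts in the knockouts, against 210.1 and 206.1 in the controls. Both knockouts lay below both controls, at 0.857 of the control level, and the gene did not pass the test (log2 fold change -0.22 ± 0.14, limma adjusted p = 0.872). The gap between the groups, 23.3 normalized counts, exceeded the range within the knockouts (9.02) and within the controls (4.01). These values rest on 211 and 239 reads in the knockouts and 215 and 153 in the controls. A range over 2 hearts does not measure the counting error at such reads, which was not estimated. The gene is X-linked, and all 4 hearts carried the same sex pattern, with *Xist* at 0 to 2.69 and the Y-linked *Ddx3y* at 997 to 1107 normalized counts. Among the 6 other receptors, none was called, and the median log2 fold change was -0.018. *Fundc2*, the paralog of *Fundc1*, had 674 and 647 in the knockouts and 678 and 792 in the controls (log2 fold change -0.15, adjusted p = 0.898 from limma). *Phb2*, an inner membrane receptor, had 1346 and 1136 in the knockouts and 1094 and 1233 in the controls. *Bcl2l13*, another outer membrane receptor, had 1022 and 822 in the knockouts and 951 and 714 in the controls. For *Nipsnap2*, whose product can recruit adaptors to the mitochondrial surface, the values were 4924 and 4358 in the knockouts and 4787 and 5065 in the controls.

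Because *Bnip3* and *Bnip3l* share a library, their ratio is free of the scaling between libraries. For each normalized count of *Bnip3l* there were 1.95 and 1.68 of *Bnip3* in the knockouts, against 1.5 and 1.48 in the controls. The ratio was thus higher in both knockouts, with a mean of 1.82 ± 0.19 (SD, n = 2) in knockout hearts, against 1.49 ± 0.016 (SD, n = 2) in control hearts. The log2 difference was 0.28 (p = 0.333 by a two-sided exact permutation test, or 0.5 after adjustment for the 3 ratios computed), and 0.333 is the smallest p that 2 hearts against 2 allow. Control replicate 2, which was highest in both genes, had nearly the same ratio as control replicate 1. The control ratios rest on 726 and 749 reads of *Bnip3* over 484 and 507 of *Bnip3l*. Counting error at these reads was not estimated, and an SD of 2 hearts is itself imprecise.

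The promoter of *Bnip3* is shown because this gene is a known target of hypoxia-inducible factor (HIF), whose core site reads ACGTG or GCGTG. The sequence comes from RefSeq on GRCm38.p6, chr7:138909520-138909756 on the minus strand, ending just before the annotated transcript, and capitals mark matches to these letters on either strand.

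Bnip3: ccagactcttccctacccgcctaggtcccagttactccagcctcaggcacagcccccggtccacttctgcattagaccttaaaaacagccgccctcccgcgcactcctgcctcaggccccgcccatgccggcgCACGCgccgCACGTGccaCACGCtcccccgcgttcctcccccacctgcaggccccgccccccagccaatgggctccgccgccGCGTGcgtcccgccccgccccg

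In the 250 bases before its start *Bnip3* held 2 matches to ACGTG, both within the palindrome CACGTG, and 3 to GCGTG. RefSeq promoters were found for 7 of the 9 genes, and not for *Bnip3l* and *Map1lc3a*. Of these 7, 4 held ACGTG or GCGTG in the window (*Bnip3*, *Map1lc3b*, *Optn* and *Pink1*), as did 38.6% of all 32851 promoters. *Bnip3* was the 1 member with CACGTG, the E-box that also forms the core of the site bound by TFEB, against 6.02% of all promoters. None of the 7 held GTAAACA, the FoxO site (3.17% of all promoters), on either strand. A match describes the letters and not a bound site.

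The HIF targets that are not members gave no call either. Of 10, both knockouts lay below both controls in 4 and above them in 2, with a median log2 fold change of -0.068. Over all genes tested these shares were 17.5% and 18.1%. *Egln3*, a HIF prolyl hydroxylase, had 525 and 467 normalized counts in the knockouts, against 800.4 and 633 in the controls (log2 fold change -0.52 ± 0.15, limma adjusted p = 0.680). *P4ha1*, a collagen prolyl hydroxylase subunit, had 478 and 373 in the knockouts and 511 and 543 in the controls. *Ldha*, for lactate dehydrogenase, had 3049 and 3132 in the knockouts and 3515 and 3408 in the controls, and *Egln1*, the main HIF prolyl hydroxylase, 1926 and 1853 in the knockouts and 1997 and 2215 in the controls. Among 9 FoxO factors and targets, 3 were lower in both knockouts (17.5% of all genes) and none higher (18.1%), with a median of -0.10. They include *Foxo3*, at 1120.3 and 975 in the knockouts and 1123 and 1125 in the controls, and *Cited2*, at 180.4 and 144 in the knockouts and 185 and 228 in the controls.

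Of the cargo adaptors, *Sqstm1* (ENSMUSG00000015837.15, chromosome 11, 50199366 to 50210827, minus strand) had the largest difference. It had 2653 and 2634 normalized counts in the knockouts, against 1747 and 2005 in the controls. The knockouts lay within 18.6 normalized counts of each other, the controls within 258.1, and the gap between the groups was 629. The log2 fold change was 0.50 ± 0.099, and in limma without a mean-variance trend its standard error was 0.14. Its p ranked 69th of the 14522 genes tested and missed the threshold after adjustment (adjusted p = 0.445 from limma). On the whole reads behind the values, 3220 and 3443 in the knockouts and 1787 and 1488 in the controls, DESeq2 called it higher (log2 fold change 0.49, adjusted p = 0.012), where it called 0.434% of all genes. edgeR on the same reads did not (adjusted p = 0.425), and it called 0.131% of all genes. Over all alternatives the adjusted p of *Sqstm1* ran from 0.012 in DESeq2 to 0.9999 without knockout replicate 2, and its log2 fold change from 0.40 (without control replicate 1) to 0.60 (without control replicate 2).

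The promoter of *Sqstm1* is shown because its transcript had the largest difference. It is taken from RefSeq on GRCm38.p6, chr11:50210828-50211070 on the minus strand, and ends before the annotated transcript.

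Sqstm1: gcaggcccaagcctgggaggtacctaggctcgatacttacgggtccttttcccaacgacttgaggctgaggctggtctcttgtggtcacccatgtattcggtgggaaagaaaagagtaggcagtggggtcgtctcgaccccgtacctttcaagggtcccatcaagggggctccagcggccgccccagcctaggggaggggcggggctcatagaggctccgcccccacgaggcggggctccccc

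No capitals appear, since this stretch holds none of the motifs searched on either strand. These were the HIF core and E-box above, GTAAACA, TGATGNAA for the ATF4 composite element (3.45% of all promoters) and TGACNNNGC for the antioxidant response element (10.2%). Sites beyond the window were not searched.

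The genes nearest to *Sqstm1* in their pattern over the 4 hearts were *Gnptab*, *Pex14* and *Sf3b6*, by the Euclidean distance of centred log2 values among 8583 genes with a mean of at least 100 (distances 0.023, 0.033 and 0.067). *Gnptab* had 441.5 and 433.0 normalized counts in the knockouts, against 289.3 and 336.8 in the controls. In all 10 genes lay within a distance of 0.1 of *Sqstm1*. The distance keeps the size of the differences, so these counts depend on that size and do not show how common a pattern is. Genes picked this way also share the group difference of the member. Within the same distance of *Optn* lay 292 genes, with *Mgat1*, *Oxnad1* and *Abhd5* the nearest, and of *Map1lc3b* 221, with *Acacb*, *Adcy5* and *Erc1*. For *Fundc1* the nearest of 137 were *Itgb1bp2*, *Zfp780b* and *Rap1b*, and for *Gabarapl1* the nearest of 94 were *Trim54*, *Pi4ka* and *Dhdds*.

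*Optn* (ENSMUSG00000026672.11, chromosome 2, 5020642 to 5064051, minus strand) encodes optineurin, the ubiquitin-binding adaptor recruited after PINK1. It had 729.9 and 719.9 normalized counts in the knockouts, against 615 and 667 in the controls, higher in both knockouts by 13.2% on average. The gap of 53.0 between the groups was about as wide as the range within the controls, 52.1, and the gene did not pass the test (log2 fold change 0.18 ± 0.10, limma adjusted p = 0.848). None of the 6 other adaptors was called, and in none of them were the groups apart (35.6% of all genes tested). Their log2 fold changes lay between -0.10 (*Calcoco1*) and 0.12 (*Ncoa4*, the ferritin adaptor), with a median of 0.013. *Ncoa4* had 959 and 1069 in the knockouts and 857 and 1008 in the controls. *Tax1bp1*, a ubiquitin-binding adaptor, had 1106 and 949 in the knockouts and 849 and 1059 in the controls. *Wdfy3*, a scaffold for aggregates, had 1433 and 1660.1 in the knockouts and 1526 and 1420.0 in the controls.

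**Figure D2:**
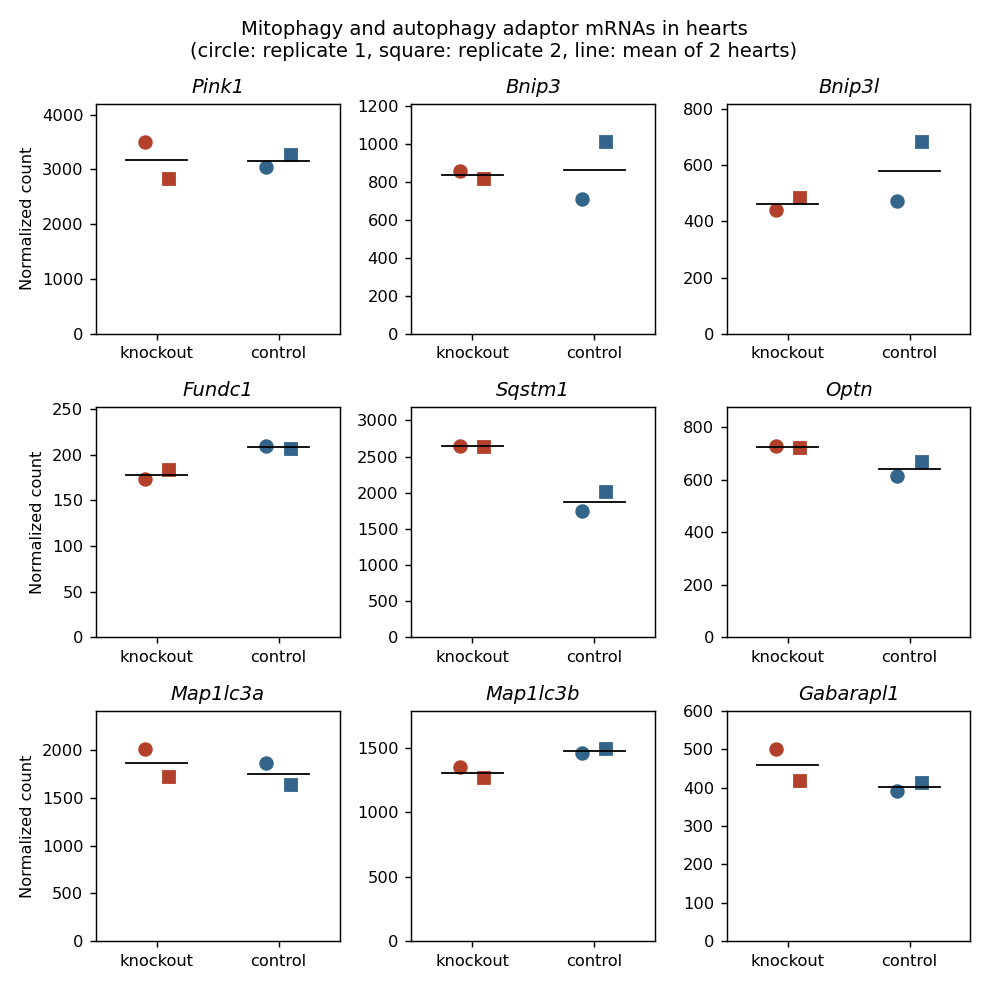
Normalized counts (vertical axes, starting at 0) of the 9 genes in knockout and control hearts, with circles for replicate 1, squares for replicate 2 and lines for the mean of 2 hearts. *Sqstm1* lies at 2653 and 2634 in the knockouts, above 1747 and 2005 in the controls, while in *Bnip3* the controls, at 710 and 1009, bracket the knockouts.

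No ATG8 gene passed the test, and their log2 fold changes had both signs. *Map1lc3a* (ENSMUSG00000027602.9, chromosome 2, 155276297 to 155278073, plus strand) had 2011 and 1721 normalized counts in the knockouts, against 1861 and 1636 in the controls. Its groups overlapped, with a log2 fold change of 0.092 ± 0.12 (limma adjusted p = 0.940). *Map1lc3b* (ENSMUSG00000031812.16, chromosome 8, 121590361 to 121598760, plus strand), for the LC3 protein most used to count autophagosomes, had 1350.2 and 1264 in the knockouts, against 1456 and 1489 in the controls. Both knockouts lay below both controls, at 0.887 of the control level, and the gene did not pass the test (log2 fold change -0.17 ± 0.091, limma adjusted p = 0.833). *Gabarapl1* (ENSMUSG00000030161.8, chromosome 6, 129533160 to 129542346, plus strand), a member of the GABARAP branch, had 500.0 and 417.7 in the knockouts, against 390.9 and 412.2 in the controls. Here the groups were apart by only 5.46 normalized counts, less than the range within the knockouts (82.3) or the controls (21.3), with a log2 fold change of 0.19 ± 0.13 (limma adjusted p = 0.890).

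Within each heart, *Map1lc3a* stood to *Map1lc3b* as 1.49 and 1.36 in the knockouts, against 1.28 and 1.1 in the controls. The ratio was higher in both knockouts, with a log2 difference of 0.27 (exact permutation test, p = 0.333, or 0.5 adjusted). *Gabarapl1* made up 27.8% and 25.9% of the summed GABARAP branch in the knockouts and 24.0% and 27.1% in the controls, so that the groups overlapped (log2 difference 0.074, exact permutation test, two-sided, p = 0.667, adjusted p = 0.667). The other genes of this branch, *Gabarap* and *Gabarapl2*, had log2 fold changes of 0.14 and -0.023. *Gabarap* had 963 and 856 normalized counts in the knockouts and 916 and 745 in the controls. *Gabarapl2* had 339 and 337 in the knockouts and 325 and 362 in the controls.

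The promoter of *Map1lc3b* is shown for its number of GCGTG matches, the most of the 7 genes. It comes from RefSeq on GRCm38.p6, chr8:121590188-121590360 on the plus strand, and ends before the annotated transcript, with capitals for GCGTG on either strand.

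Map1lc3b: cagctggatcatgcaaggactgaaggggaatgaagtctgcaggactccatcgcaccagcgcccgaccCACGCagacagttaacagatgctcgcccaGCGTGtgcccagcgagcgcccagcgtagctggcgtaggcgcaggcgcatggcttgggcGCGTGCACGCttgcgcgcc

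Of 5 matches in the 250 bases before its RefSeq start, 4 lie in the stretch printed. GCGTG alone occurred in 28.2% of all promoters. That share covers promoters with any number of matches, so it gives no reference for how many a promoter holds. *Bnip3* and *Map1lc3b* held the most matches among the members with a RefSeq promoter. Their log2 fold changes were -0.016 and -0.17, and neither passed the test. Whether the matches bear on these values was not tested.

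**Figure D3:**
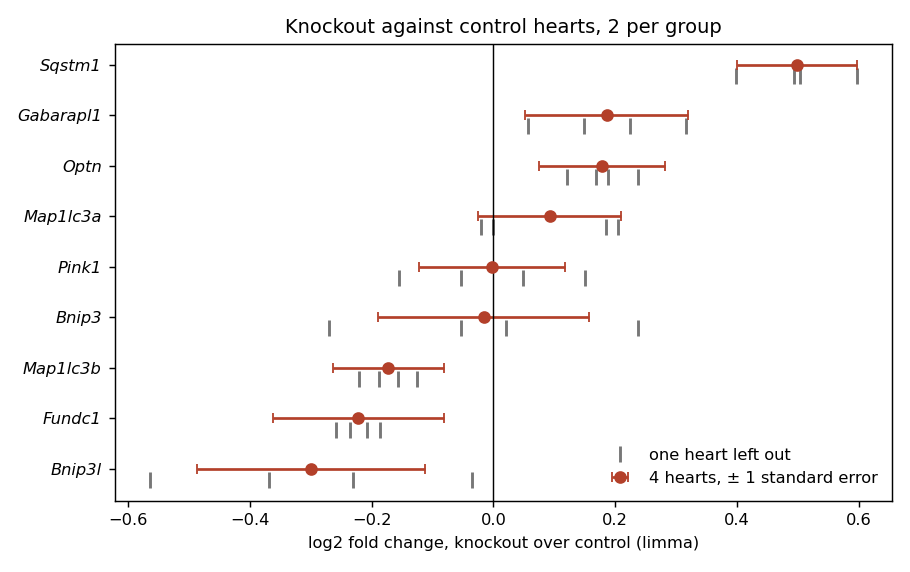
Log2 fold change of knockout over control hearts from limma (horizontal axis) for each of the 9 genes (vertical axis), with bars of 1 standard error from limma, its variance drawn toward the trend, and below each point 4 ticks for the same value with 1 heart left out. *Sqstm1* stays between 0.40 and 0.60, while *Bnip3* runs from -0.27 to 0.24 and *Bnip3l* from -0.56 to -0.035.

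Further along the pathway, the enzymes that attach ATG8 proteins to lipid, with *Gabarap* and *Gabarapl2*, gave no call among 12 genes (median log2 fold change 0.046). *Atg16l1*, which directs conjugation to the membrane, had 369.9 and 439 normalized counts in the knockouts and 340.1 and 366 in the controls. *Atg4c*, an ATG8 protease, had 56.8 and 41.3 in the knockouts and 35.2 and 36.4 in the controls. *Atg7*, the activating enzyme, had 180.4 and 99.5 in the knockouts and 88.0 and 121 in the controls, so that 1 knockout alone was high.

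Of 15 genes that start the autophagosome none was called, 4 were higher in both knockouts (18.1% of all genes) and 1 lower (17.5%), and the median was 0.0013. *Uvrag*, a partner of the class III phosphoinositide 3-kinase, had 314 and 299.9 in the knockouts and 271 and 233 in the controls. *Atg9a*, the lipid scramblase of early vesicles, had 773 and 725 in the knockouts and 685 and 583 in the controls. *Rb1cc1*, for the FIP200 subunit of the ULK1 complex, was the gene lower in both knockouts, at 1263 and 1337 against 1370.2 and 1556 in the controls. *Becn1*, for beclin 1, had 407 and 434 in the knockouts and 431 and 511 in the controls.

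Of 14 genes of the TFEB family and the lysosome none was called, 6 were lower in both knockouts (17.5% of all genes) and 1 higher (18.1%), and the median was -0.069. The higher gene was *Ctsl*, for the protease cathepsin L, with 1393 and 1333 normalized counts in the knockouts, against 1044 and 1064 in the controls (log2 fold change 0.37, standard error 0.090, unadjusted p = 0.0060, adjusted p = 0.618 from limma). *Ctsb*, for cathepsin B, lay the other way, at 3154 and 3063 in the knockouts and 3473 and 3528 in the controls. *Mcoln1*, the lysosomal calcium channel, had 133 and 144 in the knockouts and 179.8 and 159 in the controls, and *Hexa*, a hexosaminidase subunit, 408 and 341 in the knockouts and 423 and 428 in the controls. Over the 8 lists together, 0 of 86 genes were called by limma (0.117% of all genes). Among the 86, 4 had an unadjusted limma p under 0.05 (6.11% of all genes), and 43 had a positive and 43 a negative log2 fold change. edgeR and DESeq2 on the whole reads also called 0 of the 86, with 3 at an unadjusted p under 0.05 in each. Over all 14522 genes tested, 888 in edgeR and 526 in DESeq2 reached that p.

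**Figure D4:**
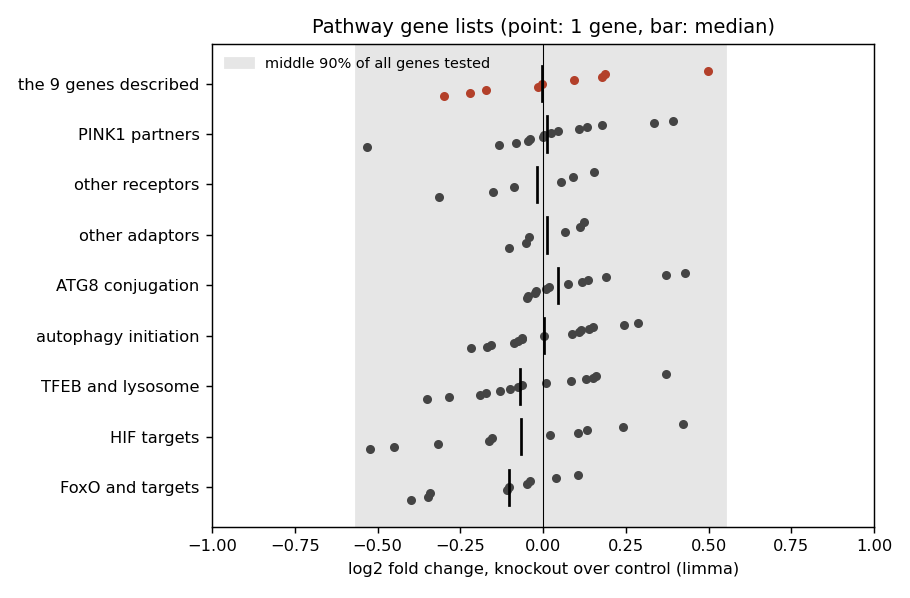
Log2 fold change of knockout over control hearts from limma (horizontal axis) for every tested gene of each list (vertical axis), with 1 point per gene and a bar at the median; grey marks the middle 90% of all genes tested, from -0.57 to 0.55. The medians lie between -0.10 (FoxO and targets) and 0.046 (ATG8 conjugation), and every point falls inside the grey band, *Sqstm1* at 0.50 included. The band includes weakly expressed genes and was not matched for expression level.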

How the data were processed

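RNA of whole hearts was sequenced in strand-specific TruSeq libraries. With STAR 2.7.3a, the authors mapped reads to a GRCm38.p6 genome in which nuclear copies of mitochondrial DNA were masked, and Salmon 1.1.0 quantified them. The authors deposited a signal per gene and library, counts divided by a DESeq2 1.26.0 size factor. Divided by the smallest nonzero value of its library, each value (100%) came out whole to within 0.001, which recovered whole counts. These are Salmon estimates summarized per gene, called reads here, and not a direct count of reads. A second deposited table holds the authors' own fold changes and p-values and was not used. Columns of 2 mice with contradictory labels, each from 2 technical runs, entered no comparison.

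Genes with at least 10 normalized counts in at least 2 of the 4 libraries (14522) were tested with limma 3.58.1 in R 4.3.3, two-sided, on log2(normalized count + 1) with the trend option, with Benjamini-Hochberg adjustment at 0.05. The added 1 shrinks the fold changes of weakly expressed genes. Ratios were compared by exact permutation tests. Alternatives covered pseudocount, filter, scaling, replicate block, each heart left out, other limma settings, and, for the recovered reads, DESeq2 1.42.0 or edgeR 4.0.16. The fits were tested on simulated data.

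The members and lists were chosen with earlier results of these data known. The genes named are the 9 members, *Ssbp1*, *Gabarap*, *Gabarapl2*, up to 4 genes of smallest p per list with any called, and the 3 nearest in pattern to each member whose groups were apart. A further gene that the rule names is not reported here. Positions and transcript lengths are from GENCODE vM21 (GRCm38), and promoters from RefSeq (GRCm38.p6). Figures used Python 3.11.15 and matplotlib 3.10.9.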

Additional observations from a re-analysis of the deposited data

Results flagged for a closer look

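The 2 mice whose labels contradict each other were used in no comparison, and 8 of their values exceeded both controls by more than the controls differed from each other. In the mouse titled as wild type with a knockout genotype label, *Sqstm1* had 3371 normalized counts, *Gabarapl1* 633.9, *Optn* 754 and *Pink1* 3582. In the mouse titled as knockout with a wild-type genotype label, *Pink1* had 3645 normalized counts, *Map1lc3b* 1646, *Gabarapl1* 435.2 and *Fundc1* 235. These are single values, and the genotype behind each is not settled by the labels.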

How the results depend on the processing

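No member was called by limma or edgeR under any alternative run. DESeq2 on the recovered reads called 1 member higher, *Sqstm1*. Over 135 values of the 9 genes under alternatives, 123 kept their direction and side of the threshold and 11 turned in direction. *Pink1* turned to 0.011 with equal nuclear totals, 0.021 with TMM factors, 0.010 in edgeR and 0.0020 in DESeq2, and *Bnip3* to 0.0073 with TMM factors. With 1 heart left out, *Pink1* ran from -0.16 to 0.15, *Bnip3* from -0.27 to 0.24, *Map1lc3a* from -0.020 to 0.20, and the log2 difference of the *Gabarapl1* percentage from -0.016 to 0.16. Of all genes, 11 were called higher: 17 among genes with at least 50 in 2 libraries, 6 without a mean-variance trend, 44 in DESeq2, and 1 to 21 with 1 heart left out (1 without knockout replicate 1 or without knockout replicate 2, 6 without control replicate 2 and 21 without control replicate 1). Of the 6 called lower there were 0 without a trend (930 genes with an unadjusted p under 0.05), 19 in DESeq2, and 4 to 12 with 1 heart left out (12 without control replicate 1). With the replicate number as a block, limma called 23 genes higher and 7 lower and no member (*Sqstm1* adjusted p = 0.376); deviations of same-numbered hearts correlated at 0.31, but 2 pairs cannot show that the numbers pair the hearts. Without control replicate 1, which leaves 1 control heart, the log2 fold change was 0.40 for *Sqstm1* and -0.56 for *Bnip3l*. With 2 hearts per group, the precision of every value is limited.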

Other observations

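For the same 2 mice, the remaining values were as follows. The mouse titled as wild type with a knockout genotype label had 972 normalized counts of *Bnip3*, 559 of *Bnip3l*, 172 of *Fundc1*, 1931 of *Map1lc3a* and 1401 of *Map1lc3b*. The mouse titled as knockout with a wild-type genotype label had 891 of *Bnip3*, 565 of *Bnip3l*, 1867 of *Sqstm1*, 1659 of *Map1lc3a* and 602 of *Optn*. In the first of these mice *Fundc1* and *Map1lc3b* lay below both controls by more than the controls differed from each other. *Ssbp1* had 152 normalized counts in the first mouse and 211.5 in the second.

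A long annotated gene, *Gm20388*, spans *Map1lc3b* on the same strand of chromosome 8. It had 0 and 233 normalized counts in the knockouts and 0 and 0 in the controls, a value picked out after it was seen. In GENCODE vM21, 0 of its 16 annotated exons overlap an exon of *Map1lc3b*.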
